A study of Mus musculus with 18 samples.

Results

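The comparison set lymph node regulatory T cells without the Id3 reporter against those with it, both named effector regulatory T cells (eTR) in the labels: Id3- eTR against Id3+ eTR. Its members were the 6 libraries whose names carry the lymph node and either eTR population, 3 of Id3- eTR and 3 of Id3+ eTR, out of 18 libraries in the study. Every library was made from 500 sorted CD4+ T cells of peripheral lymph node or spleen with an ultra-low-input cDNA kit. All cells came from 3 littermate C57BL/6 mice, numbered 84, 86 and 87, of the cross of Id3-GFP with Foxp3-mRFP reporter mice, so each mouse gave 1 library to each group. Id3+ eTR were gated as CD44-high, with 1 further surface marker, while the label of Id3- eTR states neither gate. The 12 other libraries are Id3+ central TR of lymph node (Id3+ cTR, CD44-low) and the same 3 populations from spleen. By its title the study used Id3 to order the stages through which tissue-resident regulatory T cells form, and the comparison sets the reporter-negative effector population of lymph node against the reporter-positive one.

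Regulatory T cells are CD4+ T cells that hold back immune responses and depend on the transcription factor Foxp3. Central ones recirculate through lymphoid organs with the help of Ccr7, whereas effector ones are antigen-experienced, carry other chemokine receptors and adhesion molecules, and are the pool from which regulatory T cells of non-lymphoid tissue arise. Id3 and its relative Id2 lack a DNA-binding domain: they bind E proteins such as E2A, HEB and E2-2 (genes Tcf3, Tcf12 and Tcf4) and keep them off their DNA sites, the E-boxes.

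Values are whole-number counts per gene, given here as CPM, counts scaled to a common library size, and listed in the order of mice 84, 86 and 87. Fold changes are log2 values of Id3- eTR over Id3+ eTR from 1 edgeR quasi-likelihood model over all 18 libraries, and a gene is called at a Benjamini-Hochberg adjusted p under 0.05 over all 12445 genes tested. The 6 libraries held 2574681, 2744699 and 2815399 counts in Id3- eTR, against 2111016, 2524038 and 2824045 in Id3+ eTR. Between 14587 and 14689 genes were detected in Id3- eTR and between 14718 and 14809 in Id3+ eTR, and mitochondrial genes held at most 0.422% of the counts in Id3- eTR and 0.548% in Id3+ eTR. The most abundant gene of each of the 6 libraries held only 4319 to 4706 counts. On the first principal component (31.6% of the variance over all 18 libraries) Id3- eTR scored 54.3 to 60.3 and Id3+ eTR 10.4 to 15.9, so the groups did not overlap. Among the 6 libraries compared, counts of same-group libraries differed by 6.92 to 7.81 times the counting variance. Spleen Id3+ eTR of mouse 84 stood apart from its partners at 21.5 and 21.7 times, which bears on the spleen values and on the shared estimate of the spread.

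The sorted cells carried the RNA expected of their labels, which is a check of the sort and not a finding. Id3 (ENSMUSG00000007872) had 61.3, 83.7 and 69.2 CPM in Id3- eTR, against 289, 296 and 304 CPM in Id3+ eTR. Id3's log2 fold change was -2.05 ± 0.16 (SE, edgeR adjusted p = 9.23e-07). The Id3- libraries thus still held Id3 reads. Foxp3 had 276, 308 and 271 CPM in Id3- eTR and 237, 286 and 252 CPM in Id3+ eTR (log2 fold change 0.14 ± 0.14 (SE), edgeR adjusted p = 0.777), and the groups overlapped. The summed CPM of 8 markers of CD4 regulatory T cells (Cd3e, Cd3d, Cd4, Foxp3, Il2ra, Ctla4, Ikzf2 and Tnfrsf18) ranged over 4033 to 4309 in the Id3- libraries, against 3678 to 4175 in the Id3+ libraries. Cd44 (log2 fold change 0.62 ± 0.24 (SE), edgeR adjusted p = 0.232) and Cd4 (log2 fold change -0.11 ± 0.16 (SE), edgeR adjusted p = 0.867), also used in the sort, were not called, but in the 6 libraries alone with mouse as a block Cd44 was (edgeR adjusted p = 0.0498). Unless another fit is named, calls are those of the edgeR test fitted over all 18 libraries.

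Of the 12445 genes, 326 (2.62%) were called: 181 (1.45%) were higher and 145 (1.17%) lower in Id3- eTR. At least 4-fold changes, by the fitted values, were met by 62 of the higher and 37 of the lower genes. In every one of the 326 genes the 3 mice gave the same direction and the 3 libraries of the groups did not overlap, a criterion that 11.3% of all tested genes met as higher and 10.7% as lower. The median log2 fold change of all tested genes was 0.00092, and the median standard error was 0.31. In outline, receptors for inflammatory chemokines, effector transcription factors, secreted mediators and migration-associated genes stood among the higher genes, and genes of resting, recirculating T cells among the lower ones. The gene lists used below were written with earlier results of these data known. Their counts of calls are descriptions, to be set beside the 1.45% and 1.17% of all tested genes. DESeq2 called 566 genes, among them 323 of the 326. The fit of the 6 libraries alone with mouse as a block called 204, 175 of them shared. Leaving out Id3- eTR of mouse 84 left 200 calls and leaving out Id3+ eTR of mouse 87 left 192. In bulk samples of this kind, a change in the share of cells that express a gene and a change in its RNA per cell cannot be told apart.

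**Figure D1:**
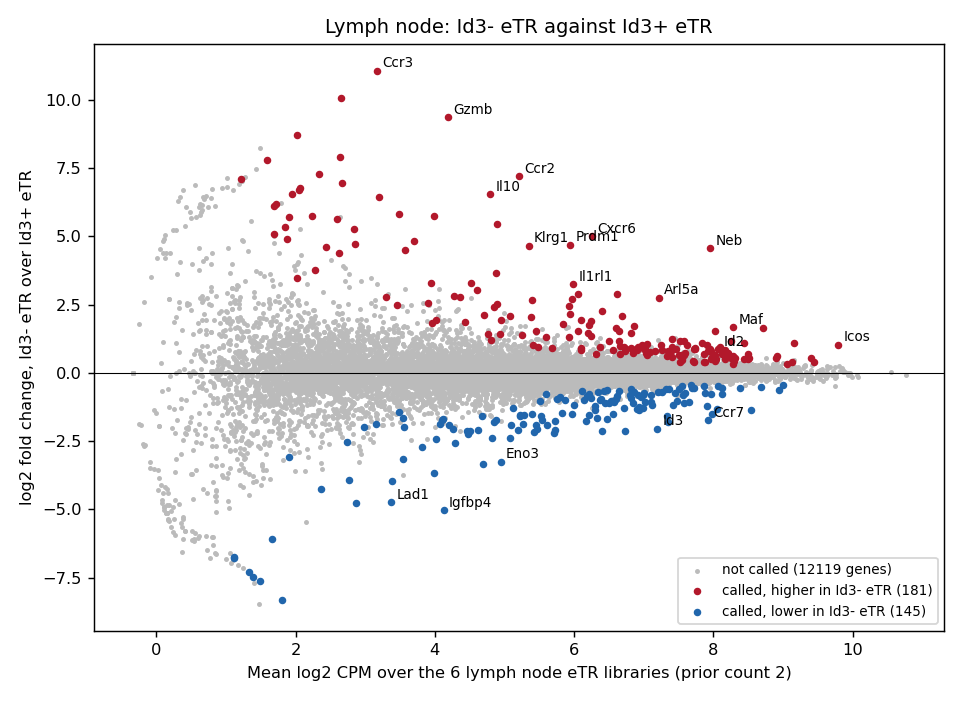
Each point is 1 of the 12445 genes tested: the horizontal axis is the mean log2 CPM over the 6 lymph node libraries, and the vertical axis is the fitted log2 fold change of Id3- eTR over Id3+ eTR. Red points are the 181 genes called higher and blue points the 145 called lower in Id3- eTR; at the left edge, fitted values of genes with almost no counts in 1 group depend on the model and are no bounds.

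Among the Id and E protein genes, Id2 was higher while Id3 was lower. Id2 had 368, 349 and 367 CPM in Id3- eTR, against 214, 172 and 211 CPM in Id3+ eTR. Id2's log2 fold change was 0.86 ± 0.14 (SE, edgeR adjusted p = 0.00241). The 3 Id3- libraries all lay above the 3 Id3+ libraries. None of the E protein genes was called. Tcf3 had 38.5, 39.5 and 23.5 CPM in Id3- eTR and 38.2, 41.4 and 36.7 CPM in Id3+ eTR. Tcf3's log2 fold change was -0.20 ± 0.38 (SE, edgeR adjusted p = 0.919). Tcf12 had 112, 104 and 147 CPM in Id3- eTR and 142, 106 and 114 CPM in Id3+ eTR. Tcf12's log2 fold change was 0.00 ± 0.20 (SE, edgeR adjusted p = 0.999). Tcf4 was lower in CPM in each Id3- library, at 3.93, 14.2 and 13.9 CPM against 19.6, 18.2 and 18.7 CPM in Id3+ eTR, without passing the test (log2 fold change -0.81 ± 0.76 (SE), edgeR adjusted p = 0.762). Id1 had 4.32, 2.19 and 6.06 CPM in Id3- eTR and 1.43, 2.71 and 3.46 CPM in Id3+ eTR (log2 fold change 0.70 ± 1.04 (SE), edgeR adjusted p = 0.876), and Id4 had too few counts to be tested.

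E-boxes were looked up in the promoters of the changed genes, since the proteins that Id2 and Id3 hold back bind there. The sequences below are the 250 bases before the transcription start in RefSeq's table for GRCm38.p6, 5′ to 3′ on the gene's strand, for both Id genes, for Ccr2 and Prdm1 among the higher genes and for Bcl2 among the lower ones. Capitals mark CANNTG, the general E-box, in which N is any base. The Id3 window lies at chr4:136143572-136143821 (+), the Id2 window at chr12:25096093-25096342 (-), the Ccr2 window at chr9:124101933-124102182 (+), the Prdm1 window at chr10:44458749-44458998 (-) and the Bcl2 window at chr1:106714291-106714540 (-).
Id3: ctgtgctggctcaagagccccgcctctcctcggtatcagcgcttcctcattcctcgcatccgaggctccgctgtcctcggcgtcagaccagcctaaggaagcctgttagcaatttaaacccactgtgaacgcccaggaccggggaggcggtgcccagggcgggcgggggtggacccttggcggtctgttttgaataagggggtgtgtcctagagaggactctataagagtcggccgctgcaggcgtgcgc
Id2: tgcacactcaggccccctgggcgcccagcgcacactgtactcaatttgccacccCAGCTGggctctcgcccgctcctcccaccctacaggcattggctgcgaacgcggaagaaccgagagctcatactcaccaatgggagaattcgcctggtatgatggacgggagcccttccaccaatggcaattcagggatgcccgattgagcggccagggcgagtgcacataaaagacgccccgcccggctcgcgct
Ccr2: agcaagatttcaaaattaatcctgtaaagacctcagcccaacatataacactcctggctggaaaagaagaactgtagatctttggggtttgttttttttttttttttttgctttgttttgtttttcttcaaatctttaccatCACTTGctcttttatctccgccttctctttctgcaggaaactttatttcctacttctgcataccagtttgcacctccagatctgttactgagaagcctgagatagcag
Prdm1: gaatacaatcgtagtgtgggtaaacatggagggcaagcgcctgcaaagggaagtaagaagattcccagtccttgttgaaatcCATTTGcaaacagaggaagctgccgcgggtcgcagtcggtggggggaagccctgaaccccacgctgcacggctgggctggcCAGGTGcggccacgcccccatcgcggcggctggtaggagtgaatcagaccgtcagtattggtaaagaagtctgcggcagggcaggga
Bcl2: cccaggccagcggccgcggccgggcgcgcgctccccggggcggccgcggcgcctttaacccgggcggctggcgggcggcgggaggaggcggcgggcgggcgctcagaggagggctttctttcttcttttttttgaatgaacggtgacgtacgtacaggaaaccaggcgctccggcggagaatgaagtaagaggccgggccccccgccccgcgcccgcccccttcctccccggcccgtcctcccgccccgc
The Prdm1 window held 2 matches, CATTTG and CAGGTG, the Id2 window 1 (CAGCTG) and the Ccr2 window 1 (CACTTG). The Id3 and Bcl2 windows held none, which says only that these letters are not in the 250 bases shown. CANNTG reads the same on both strands. It stood in the window of 62.5% of the 136 higher genes with a RefSeq promoter and of 64.0% of the 114 lower ones, against 56.6% of the 8841 tested genes with one and 66.0% of all 27025 promoters in the table. The narrower CAGGTG, searched on both strands and contained in CANNTG, stood in 21.3% of the higher, 19.3% of the lower and 14.8% of all tested genes' windows, and in 17.1% of all promoters. TGANTCA, the site of AP-1 proteins, which no CANNTG contains, stood on either strand in 10.3% of the higher, 5.26% of the lower and 3.97% of the tested genes' windows, and in 6.87% of all promoters. The Prdm1 window held 1 such match. These shares describe letters in a window and not binding.

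Chemokine and trafficking receptors were mostly higher in Id3- eTR where they passed the test. Of 22 tested, 8 were higher (among them Ccr1, Ccr2, Ccr3, Ccr4, Cxcr3, Cxcr6 and Ltb4r1) 1 was lower (Ccr7) and 13 were not called, and the median log2 fold change was 0.88. Ccr2 (ENSMUSG00000049103), the receptor for the monocyte chemoattractant Ccl2, had 431, 415 and 499 CPM in Id3- eTR, against 1.43, 1.16 and 5.89 CPM in Id3+ eTR. Ccr2's log2 fold change was 7.20 ± 0.32 (SE, edgeR adjusted p = 1.13e-09). It had the smallest p of all tested genes, and every Id3- library lay far above every Id3+ library. Cxcr6, the receptor for Cxcl16 and a mark of T cells that settle in tissue, had 411, 431 and 462 CPM in Id3- eTR and 19.1, 6.96 and 14.9 CPM in Id3+ eTR. Cxcr6's log2 fold change was 5.01 ± 0.63 (SE, edgeR adjusted p = 0.000156). Ccr3, the eotaxin receptor, had 140.3, 74.2 and 102 CPM in Id3- eTR and no count in any Id3+ library. It was at least 264-fold higher in Id3- eTR (edgeR adjusted p = 4.51e-05). Ccr1 had 26.7, 26.3 and 29.9 CPM in Id3- eTR and 1 count in Id3+ eTR, a ratio of 209.7 (95% counting interval 37.2 to 8317) (edgeR adjusted p = 0.000869). Ltb4r1, the high-affinity receptor for leukotriene B4, had 29.5, 55.9 and 33.5 CPM in Id3- eTR and 2 counts over the Id3+ libraries, a ratio of 151 (95% counting interval 41.4 to 1249.6) (edgeR adjusted p = 0.00024).

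Ccr4, Cxcr3 and Ccr7 changed less than the receptors above. Ccr4, the receptor for Ccl17 and Ccl22, had 159, 139.6 and 102 CPM in Id3- eTR and 41.1, 28.98 and 35.3 CPM in Id3+ eTR. Ccr4's log2 fold change was 1.93 ± 0.41 (SE, edgeR adjusted p = 0.0151). Cxcr3, the receptor for interferon-induced chemokines, had 322, 244 and 296 CPM in Id3- eTR and 138, 110.1 and 135 CPM in Id3+ eTR. Cxcr3's log2 fold change was 1.17 ± 0.28 (SE, edgeR adjusted p = 0.0358). Ccr7, which guides T cells into lymph nodes, had 165, 119 and 115 CPM in Id3- eTR, against 478, 412 and 443 CPM in Id3+ eTR. Ccr7's log2 fold change was -1.74 ± 0.16 (SE, edgeR adjusted p = 5.44e-06). The receptors with fitted log2 changes under 1 and no call included Ccr6 (0.31), Ccr8 (0.33), Cxcr4 (-0.08) and S1pr1 (0.02), the sphingosine 1-phosphate receptor needed for egress from lymph nodes. Ccr10 was not called over the 18 libraries. It was called higher in the 6 libraries alone (log2 fold change 5.747, edgeR adjusted p = 0.01685) and in the 9 lymph node libraries alone (5.738, edgeR adjusted p = 0.02276). Ccr4 lost its call on leaving out Id3- eTR of mouse 84 or 86, or Id3+ eTR of mouse 86 or 87 (edgeR adjusted p of 0.0549 to 0.0847). Cxcr3 lost its call on leaving out any 1 of the 6 libraries and in the 9 lymph node libraries alone (edgeR adjusted p of 0.0568 to 0.148). Of the higher receptors, 4 are close neighbours in the genome: in RefSeq's GRCm38.p6 order on chromosome 9, Cxcr6, Ccr1, Ccr3 and Ccr2 are set apart by 2 protein-coding genes. These are Xcr1, which was not called (log2 fold change 2.68, edgeR adjusted p = 0.313), and Ccr1l1, which was not tested. Ccr1 and Ccr3 are close in sequence, and the sources used here do not say how reads shared by such genes were assigned.

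Effector transcription factors were higher where they passed the test. Of 20 tested, 7 were higher (among them Prdm1, Maf, Rora, Runx2, Ahr and Id2) and none lower, with a median log2 fold change of 0.76. Bhlhe40, a factor of activated T cells, was called lower by DESeq2 (adjusted p = 0.0267) and in 4 of the alternative edgeR fits (edgeR adjusted p of 0.00719 in the 6 libraries alone to 0.0420 in the 9 lymph node libraries). Prdm1 (ENSMUSG00000038151), which encodes Blimp-1, a repressor typical of terminally differentiated lymphocytes, had 310.1, 288 and 320.5 CPM in Id3- eTR, against 14.3, 13.5 and 7.96 CPM in Id3+ eTR. Prdm1's log2 fold change was 4.69 ± 0.38 (SE, edgeR adjusted p = 1.47e-06). It was low in all 3 Id3+ libraries. Maf, a transcription factor that drives Il10 in T cells, had 503, 542 and 625 CPM in Id3- eTR and 193, 179.7 and 153 CPM in Id3+ eTR. Maf's log2 fold change was 1.67 ± 0.22 (SE, edgeR adjusted p = 0.000201). Rora, a nuclear receptor active in tissue regulatory T cells and innate lymphocytes, had 496, 467 and 409.9 CPM in Id3- eTR and 176, 219.9 and 211 CPM in Id3+ eTR. Rora's log2 fold change was 1.18 ± 0.19 (SE, edgeR adjusted p = 0.00199). Factors long linked to effector regulatory T cells were not called: the log2 fold change was 0.20 for Batf, 0.33 for Irf4 and 0.22 for Gata3. Bcl6, the follicular lineage factor, had a log2 fold change of -1.64 (edgeR adjusted p = 0.14), and Pparg, the factor of fat tissue regulatory T cells, was not called either (edgeR adjusted p = 0.268). Runx2 lost its call on leaving out Id3- eTR of mouse 84, 86 or 87, or Id3+ eTR of mouse 84 or 87, without the filter on low counts, in the 9 lymph node libraries alone and in the 6 libraries alone with and without mouse as a block (edgeR adjusted p of 0.0531 to 0.124). Ahr lost its call on leaving out any 1 of the 6 libraries, with mouse as a block over all 18 libraries and in the 6 libraries alone with mouse as a block (edgeR adjusted p of 0.0595 to 0.181).

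**Figure D2:**
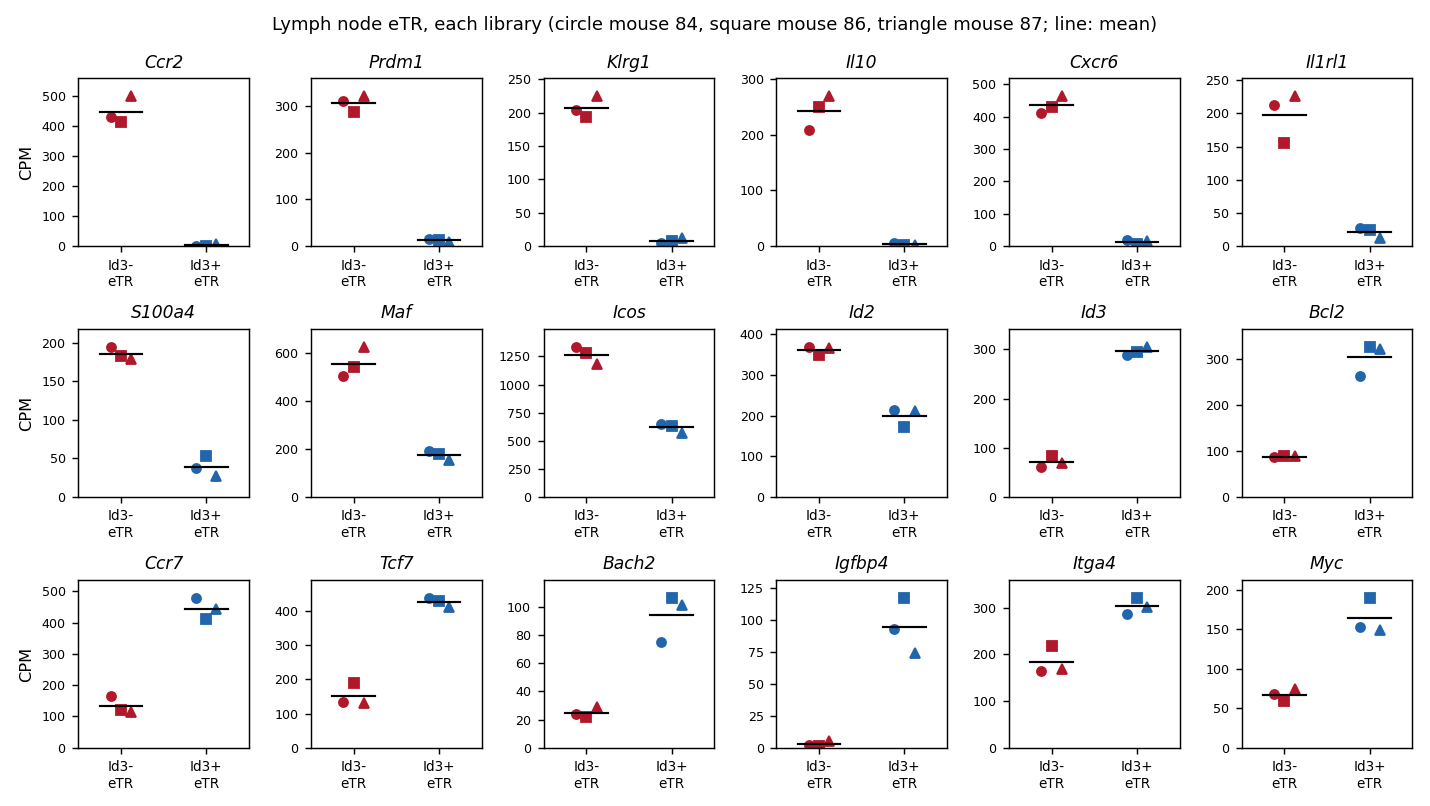
CPM of 18 genes in the 6 lymph node libraries: Id3- eTR on the left of each panel in red and Id3+ eTR on the right in blue, with 1 symbol shape per mouse and a line at the mean of 3. Each axis starts at 0, and in each panel the 3 Id3- values lie wholly above or wholly below the 3 Id3+ values, as for Ccr2 with 431, 415 and 499 CPM against 1.43, 1.16 and 5.89 CPM.

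Genes typical of regulatory T cells in non-lymphoid tissue were higher in Id3- eTR where they passed the test. Of 20 listed and tested, 10 were higher (Il1rl1, Klrg1, Il10, Rora, Ccr2, Arnt2, Itgae, Cxcr6, Ahr and Lmna) and none lower, with a median log2 fold change of 1.46. Of all tested genes, 1.45% were called higher. Klrg1, a cadherin-binding inhibitory receptor of differentiated T cells, had 203, 193 and 224 CPM in Id3- eTR, against 3.82, 7.73 and 12.1 CPM in Id3+ eTR. Klrg1's log2 fold change was 4.66 ± 0.40 (SE, edgeR adjusted p = 2.91e-06). Il1rl1, which encodes the interleukin 33 receptor ST2, had 213, 155 and 226 CPM in Id3- eTR and 27.7, 23.6 and 11.8 CPM in Id3+ eTR. Il1rl1's log2 fold change was 3.25 ± 0.33 (SE, edgeR adjusted p = 1.84e-05). Arnt2, a partner of PAS-domain transcription factors, had 73.1, 44.6 and 37.1 CPM in Id3- eTR and 1.43, 3.86 and 1.38 CPM in Id3+ eTR. Arnt2's log2 fold change was 4.49 ± 0.74 (SE, edgeR adjusted p = 0.00478). In all 3 genes the lowest Id3- library lay above the highest Id3+ library by several-fold. Itgae, the αE integrin chain CD103, which binds E-cadherin of epithelium, had 799, 733 and 693 CPM in Id3- eTR and 269.9, 222 and 219 CPM in Id3+ eTR. Itgae's log2 fold change was 1.65 ± 0.41 (SE, edgeR adjusted p = 0.0406). Itgae lost its call on leaving out any 1 of the 6 libraries and without the filter on low counts (edgeR adjusted p of 0.0926 to 0.175) and by DESeq2. Lmna lost its call on leaving out Id3- eTR of mouse 84 or 86, or Id3+ eTR of mouse 84 or 87 and in the 6 libraries alone with mouse as a block (edgeR adjusted p of 0.0522 to 0.0713). Areg (1.46), Nfil3 (0.66) and Ccr8 (0.33) were not called, with the log2 fold changes given, though Areg was called by DESeq2 (adjusted p = 0.0144) and in the 6 libraries alone (edgeR adjusted p = 0.00838).

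Secreted and suppressive mediators were higher where they changed: 6 of 18 tested were called (Il10, Gzmb, Fgl2, Lgals1, Lgals3 and Ctla4), with a median log2 fold change of 0.59. Il10, the cytokine that restrains myeloid cells and T cells, had 208, 249 and 269 CPM in Id3- eTR, against 4.78, 1.93 and 1.38 CPM in Id3+ eTR. Il10's log2 fold change was 6.54 ± 0.72 (SE, edgeR adjusted p = 4.08e-05). Fgl2, a secreted fibrinogen-like protein with suppressive activity, had 195, 171 and 216 CPM in Id3- eTR and 8.12, 1.16 and 4.5 CPM in Id3+ eTR. Fgl2's log2 fold change was 5.43 ± 0.66 (SE, edgeR adjusted p = 0.000118). Gzmb, the cytotoxic protease granzyme B, had 312, 251 and 310.1 CPM in Id3- eTR and 3 counts over the Id3+ libraries, a ratio of 733 (95% counting interval 251 to 3558) (edgeR adjusted p = 6.65e-05). Every Id3- library held at least 528 counts of Il10 and 687 of Gzmb, and no Id3+ library held more than 10. Tgfb1 (0.40), Ebi3 (0.10), Entpd1 (0.87) and Nt5e (0.47), whose products make transforming growth factor β, an interleukin 35 subunit and the ectoenzymes CD39 and CD73, were not called, with the log2 fold changes given. Entpd1 and Nt5e were called in the 6 libraries alone (edgeR adjusted p of 0.0199 and 0.0336). Of 11 tested cytotoxic and NK-associated genes (median log2 fold change 0.13), Gzmc was the other call beside Gzmb, with 34.98, 32.5 and 27.1 CPM in Id3- eTR and 0, 1.16 and 2.08 CPM in Id3+ eTR. Gzmc's log2 fold change was 4.73 ± 1.09 (SE, edgeR adjusted p = 0.0248). Prf1, perforin, was not called (-0.56). Gzmc lost its call on leaving out any 1 of the 6 libraries and in the 6 libraries alone with mouse as a block (edgeR adjusted p of 0.0526 to 0.102). Gzmb and Gzmc are related in sequence, and reads could be divided between them.

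Inhibitory receptors moved in both directions. Of 12 tested, 5 were higher (Ctla4, Tigit, Havcr2, Klrg1 and Vsir) and 2 lower (Cd96 and Cd160), with a median log2 fold change of 0.49. Havcr2, which encodes Tim-3, had 66.03, 27.4 and 64.2 CPM in Id3- eTR and no count in any Id3+ library, and was at least 132-fold higher (edgeR adjusted p = 0.00219). Ctla4, which removes costimulatory ligands from antigen-presenting cells, differed by far less, with 829, 808 and 778 CPM in Id3- eTR and 712, 560.4 and 539 CPM in Id3+ eTR. Ctla4's log2 fold change was 0.42 ± 0.10 (SE, edgeR adjusted p = 0.0392). Tigit had 306, 284 and 268 CPM in Id3- eTR and 195, 138 and 139.9 CPM in Id3+ eTR. Tigit's log2 fold change was 0.86 ± 0.22 (SE, edgeR adjusted p = 0.0468). Cd96, which shares a ligand with Tigit, had 406, 382 and 397 CPM in Id3- eTR and 704, 509 and 632 CPM in Id3+ eTR. Cd96's log2 fold change was -0.64 ± 0.13 (SE, edgeR adjusted p = 0.00971). Ctla4 lost its call on leaving out Id3- eTR of mouse 84, 86 or 87, or Id3+ eTR of mouse 86 or 87 and in the 6 libraries alone with and without mouse as a block (edgeR adjusted p of 0.0784 to 0.198). Tigit lost its call on leaving out Id3- eTR of mouse 84, 86 or 87, or Id3+ eTR of mouse 86 or 87, with mouse as a block over all 18 libraries and in the 9 lymph node libraries alone (edgeR adjusted p of 0.0534 to 0.21). Cd96 lost its call on leaving out Id3+ eTR of mouse 84 (edgeR adjusted p = 0.0579). Vsir lost its call on leaving out any 1 of the 6 libraries (edgeR adjusted p of 0.101 to 0.191). Cd160 lost its call on leaving out Id3- eTR of mouse 84 or 87, or Id3+ eTR of mouse 86 or 87 and in the 9 lymph node libraries alone (edgeR adjusted p of 0.0592 to 0.139).

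Genes of cell migration and the cytoskeleton were higher in Id3- eTR where they passed the test. Of 18 tested in the list of S100, annexin, galectin and migration genes, 9 were called higher (S100a4, S100a6, Anxa1, Anxa6, Lgals1, Lgals3, Vim, Lmna and Ahnak), none lower, and all 18 had a positive log2 fold change, with a median of 0.60. S100a4, a calcium-binding protein of motile cells, had 194, 183 and 179 CPM in Id3- eTR, against 37.3, 52.9 and 26.7 CPM in Id3+ eTR. S100a4's log2 fold change was 2.25 ± 0.22 (SE, edgeR adjusted p = 1.59e-05). S100a6 had 215, 203 and 206 CPM in Id3- eTR and 65.9, 67.2 and 57.5 CPM in Id3+ eTR. S100a6's log2 fold change was 1.71 ± 0.21 (SE, edgeR adjusted p = 0.000118). Ahnak, a giant scaffold protein at the plasma membrane, had 844, 885 and 790.3 CPM in Id3- eTR and 424, 430.1 and 315 CPM in Id3+ eTR. Ahnak's log2 fold change was 1.11 ± 0.11 (SE, edgeR adjusted p = 1.88e-05). Anxa1, a phospholipid-binding protein that limits inflammation, had 76.6, 46.8 and 94.5 CPM in Id3- eTR and 3.34, 0.386 and 0.346 CPM in Id3+ eTR. Anxa1's log2 fold change was 5.81 ± 0.96 (SE, edgeR adjusted p = 0.00305). Lgals3 lost its call on leaving out Id3+ eTR of mouse 84 or 86 (edgeR adjusted p of 0.0658 to 0.0808). Lgals1 lost its call on leaving out Id3- eTR of mouse 84, or Id3+ eTR of mouse 84 or 87 (edgeR adjusted p of 0.0575 to 0.0909). Anxa6 lost its call on leaving out Id3- eTR of mouse 84, or Id3+ eTR of mouse 86 and in the 6 libraries alone with mouse as a block (edgeR adjusted p of 0.0631 to 0.0732). The list's members differed in size of change, Vim with a log2 fold change of 0.56 and Lgals3 with 3.66.

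Integrins and other adhesion genes gave calls in both directions: of 23 tested, 2 were higher (Itga2 and Itgae) and 3 lower (among them Itga4 and Pecam1), with a median log2 fold change of 0.24. Itga2, the collagen-binding α2 chain, had 38.9, 31.1 and 29.9 CPM in Id3- eTR, against 1.43, 1.16 and 0 CPM in Id3+ eTR. Itga2's log2 fold change was 5.26 ± 0.86 (SE, edgeR adjusted p = 0.00199). Itga4, the α4 chain that binds Vcam1 and, with β7, the mucosal addressin, had 164, 217 and 169 CPM in Id3- eTR and 287, 320.0 and 301 CPM in Id3+ eTR. Itga4's log2 fold change was -0.72 ± 0.12 (SE, edgeR adjusted p = 0.00206). Pecam1, which lymphocytes as well as endothelium express, had 79.00, 65.4 and 62.7 CPM in Id3- eTR and 137, 116 and 151 CPM in Id3+ eTR. Pecam1's log2 fold change was -0.96 ± 0.17 (SE, edgeR adjusted p = 0.00344). Spn, the sialomucin CD43, is not on the list and was named after its values were seen: it had 147, 174 and 185 CPM in Id3- eTR and 75.97, 97.00 and 86.9 CPM in Id3+ eTR. Spn's log2 fold change was 0.96 ± 0.13 (SE, edgeR adjusted p = 0.000214). Pecam1 lost its call in the 6 libraries alone with mouse as a block (edgeR adjusted p = 0.0541).

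**Figure D3:**
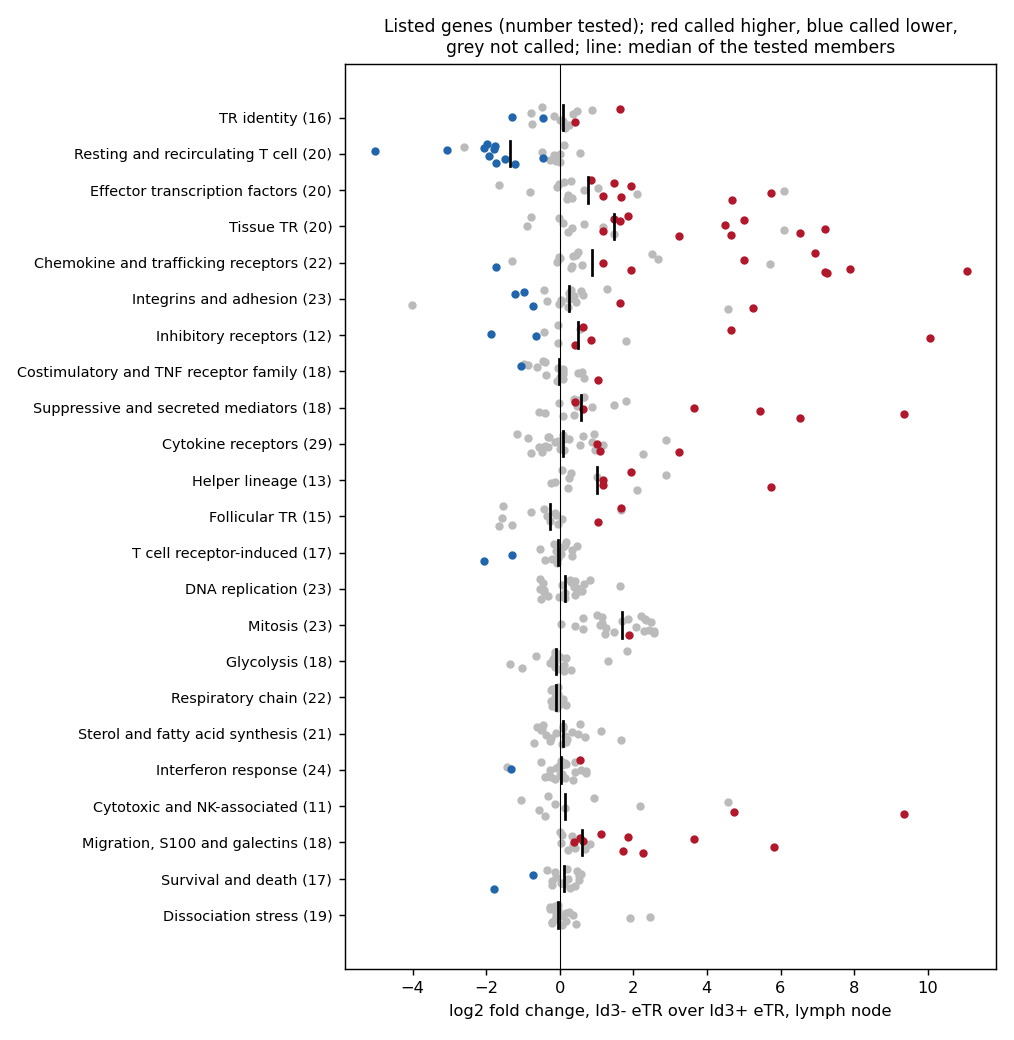
Fitted log2 fold changes of Id3- eTR over Id3+ eTR in lymph node for the tested members of 23 gene lists, with the number tested in brackets. Red points were called higher, blue points lower and grey points not called, and the black line is the list's median, which lies at -1.35 for resting and recirculating T cell genes and at 1.46 for genes of tissue regulatory T cells.

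Genes of resting and recirculating T cells were lower in Id3- eTR where they passed the test. Of 20 tested, 11 were lower (among them Ccr7, Tcf7, Lef1, Bach2, Igfbp4, Dapl1, Bcl2, Ly6c1, Nsg2 and Actn1) and none higher, with a median log2 fold change of -1.35. Tcf7, the transcription factor TCF-1 of naive and memory T cells, had 133, 190.0 and 132 CPM in Id3- eTR, against 438, 431 and 412 CPM in Id3+ eTR. Tcf7's log2 fold change was -1.49 ± 0.15 (SE, edgeR adjusted p = 1.59e-05). Its partner Lef1 changed less, with 166, 167 and 193 CPM in Id3- eTR and 232, 238 and 247 CPM in Id3+ eTR. Lef1's log2 fold change was -0.45 ± 0.09 (SE, edgeR adjusted p = 0.00991). Bach2, a repressor that holds back effector programs, had 23.98, 21.6 and 28.9 CPM in Id3- eTR and 75.01, 106 and 101 CPM in Id3+ eTR. Bach2's log2 fold change was -1.93 ± 0.18 (SE, edgeR adjusted p = 9.59e-06). In all 3 genes the highest Id3- library lay below the lowest Id3+ library. Bcl2, the survival protein, had 86.1, 88.04 and 88.05 CPM in Id3- eTR and 263, 325 and 319.9 CPM in Id3+ eTR. Bcl2's log2 fold change was -1.79 ± 0.13 (SE, edgeR adjusted p = 4.55e-07). Igfbp4, an insulin-like growth factor binding protein of naive CD4 T cells, had 2.36, 1.1 and 4.99 CPM in Id3- eTR and 92.7, 117 and 74.1 CPM in Id3+ eTR. Igfbp4's log2 fold change was -5.03 ± 0.51 (SE, edgeR adjusted p = 1.84e-05). Ly6c1 (log2 fold change -2.07 ± 0.29 (SE), edgeR adjusted p = 0.00048) and Nsg2 (log2 fold change -1.77 ± 0.20 (SE), edgeR adjusted p = 4.1e-05) were lower as well. The listed transcription factors of quiescence that were not called had log2 fold changes of -0.09 for Klf2, -0.16 for Foxp1 and 0.13 for Ets1, and Il7r, the interleukin 7 receptor, one of 0.55. Lef1 lost its call on leaving out Id3- eTR of mouse 84 or 86, or Id3+ eTR of mouse 87 and in the 6 libraries alone with mouse as a block (edgeR adjusted p of 0.0512 to 0.0822). Dapl1 lost its call on leaving out Id3- eTR of mouse 84, 86 or 87, or Id3+ eTR of mouse 84 or 87, with mouse as a block over all 18 libraries and in the 6 libraries alone with and without mouse as a block (edgeR adjusted p of 0.0567 to 0.16). Actn1 lost its call on leaving out any 1 of the 6 libraries, with mouse as a block over all 18 libraries and in the 6 libraries alone with mouse as a block (edgeR adjusted p of 0.0578 to 0.181). Markers of conventional CD4 T cells, 12 genes, were lower in sum as well, with Il17a and Tubb3 at 0 in all 6 libraries. The sums were 677 to 715 CPM in the Id3- libraries, against 1051 to 1159 CPM in the Id3+ libraries. The members moved in both directions: of 9 tested, 6 had a negative and 3 a positive log2 fold change. Summed over 3 libraries, Cd200, Bhlhe40, Igfbp4 and Cd40lg had 1533, 1083, 23 and 851 counts in Id3- eTR. In Id3+ eTR they had 2461, 1772, 711 and 1218. Ifng and Il4 had more counts in Id3- eTR, at 652 and 106 against 494 and 51. Igfbp4 is a member of this list and of the resting list. The part of these markers in the lower resting genes was not tested.

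Beyond Bcl2, the survival and death list held 1 other call among 17 tested. Fas, the death receptor, had 135, 125 and 146 CPM in Id3- eTR and 226, 211 and 235 CPM in Id3+ eTR. Fas's log2 fold change was -0.73 ± 0.16 (SE, edgeR adjusted p = 0.022). Fas lost its call on leaving out Id3- eTR of mouse 84 or 86, or Id3+ eTR of mouse 84 or 87 (edgeR adjusted p of 0.065 to 0.0975). The list's median log2 fold change was 0.11.

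Core regulatory T cell genes were mixed: of 16 tested, 2 were higher (Ctla4 and Itgae) and 2 lower (Nrp1 and Gpr83), with a median log2 fold change of 0.09. The list's calls were 2 higher and 3 lower by DESeq2, and 3 higher and 3 lower in the 6 libraries alone. On leaving out Id3- eTR of mouse 84 they were 0 higher and 1 lower. Gpr83, a G protein-coupled receptor enriched in regulatory T cells, had 80.6, 76.4 and 87.7 CPM in Id3- eTR, against 176, 176 and 249 CPM in Id3+ eTR. Gpr83's log2 fold change was -1.30 ± 0.18 (SE, edgeR adjusted p = 0.000328). Nrp1, neuropilin-1, which marks thymus-derived regulatory T cells in mice, had 431, 464 and 427 CPM in Id3- eTR and 587, 624 and 589 CPM in Id3+ eTR. Nrp1's log2 fold change was -0.45 ± 0.09 (SE, edgeR adjusted p = 0.00962). Ikzf2, which encodes Helios and is used beside Nrp1 for the same purpose, was not called (0.25), nor were Il2ra (0.11) and Tnfrsf18 (0.08). Nrp1 lost its call on leaving out Id3- eTR of mouse 84 or 87, or Id3+ eTR of mouse 86 (edgeR adjusted p of 0.0506 to 0.0542). Costimulatory molecules and TNF receptors gave 1 higher and 1 lower gene of 18 tested, at a median log2 fold change of -0.03. Icos, the costimulatory receptor that effector regulatory T cells depend on, had 1332, 1278 and 1183 CPM in Id3- eTR and 653, 633 and 569 CPM in Id3+ eTR. Icos's log2 fold change was 1.03 ± 0.10 (SE, edgeR adjusted p = 1.84e-05). Tnfsf8, the CD30 ligand, had 116, 143 and 161 CPM in Id3- eTR and 310.1, 245 and 323 CPM in Id3+ eTR. Tnfsf8's log2 fold change was -1.06 ± 0.15 (SE, edgeR adjusted p = 0.00057). Icos and Maf were also the 2 called members of the 15 tested follicular regulatory T cell genes, whose median log2 fold change was -0.25. The lineage's defining members Bcl6 (-1.64) and Cxcr5 (-1.30) had negative log2 fold changes and were not called. Btla, an inhibitory receptor, and Tox, a nuclear factor of the same list, were called lower by DESeq2 (adjusted p of 0.0160 and 0.0380) and in the 6 libraries alone (edgeR adjusted p of 0.0186 and 0.0436), and Cxcr5 was called lower on leaving out mouse 86 of Id3- eTR (edgeR adjusted p = 0.0355).

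Of 29 tested cytokine receptor genes, 3 were higher (Il1rl1, Il18r1 and Il10ra), none lower, and the median log2 fold change was 0.08. Il18r1, the interleukin 18 receptor, had 368, 294 and 336 CPM in Id3- eTR and 169, 148 and 152 CPM in Id3+ eTR. Il18r1's log2 fold change was 1.09 ± 0.24 (SE, edgeR adjusted p = 0.0172). Il10ra had 263, 222 and 164 CPM in Id3- eTR and 105, 118 and 100.4 CPM in Id3+ eTR. Il10ra's log2 fold change was 1.002 ± 0.26 (SE, edgeR adjusted p = 0.0465). Il18r1 lost its call on leaving out Id3- eTR of mouse 84 or 87, or Id3+ eTR of mouse 86 or 87 (edgeR adjusted p of 0.0605 to 0.086). Il10ra lost its call on leaving out Id3- eTR of mouse 84 or 86, or Id3+ eTR of mouse 84, 86 or 87 and with mouse as a block over all 18 libraries (edgeR adjusted p of 0.065 to 0.218). The helper lineage list of 13 tested genes held 4 higher ones (among them Rora, Cxcr3 and Ccr4), which the chemokine receptor and effector lists hold too, and its median log2 fold change was 0.9999. Cish, an inducible inhibitor of STAT5 signalling that was named after its values were seen, had 334, 293 and 299.8 CPM in Id3- eTR and 203, 202 and 207 CPM in Id3+ eTR. Cish's log2 fold change was 0.60 ± 0.11 (SE, edgeR adjusted p = 0.0034). Ikzf3, which encodes Aiolos and was also named after its values were seen, had 507, 429 and 399 CPM in Id3- eTR and 134, 183 and 145 CPM in Id3+ eTR. Ikzf3's log2 fold change was 1.53 ± 0.19 (SE, edgeR adjusted p = 0.000149).

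Genes induced by the T cell receptor gave 2 lower calls among 17 tested, Nr4a2 and Myc, and no higher one by edgeR over the 18 libraries, with a median log2 fold change of -0.06. Myc, the growth regulator, had 67.99, 58.8 and 73.8 CPM in Id3- eTR, against 153, 189 and 149.6 CPM in Id3+ eTR. Myc's log2 fold change was -1.29 ± 0.16 (SE, edgeR adjusted p = 0.000119). Nr4a2, an orphan nuclear receptor, had 6.29, 6.94 and 14.6 CPM in Id3- eTR and 32.97, 48.3 and 35.3 CPM in Id3+ eTR. Nr4a2's log2 fold change was -2.06 ± 0.41 (SE, edgeR adjusted p = 0.00871). Its relative Nr4a1, the usual reporter of receptor signalling, had a log2 fold change of -0.09 and was not called. Ifrd1, a transcriptional coregulator, was called higher by DESeq2 (adjusted p = 0.0431) and in the 9 lymph node libraries alone (edgeR adjusted p = 0.0461). Nr4a2 lost its call on leaving out Id3- eTR of mouse 84 or 86 and in the 6 libraries alone with mouse as a block (edgeR adjusted p of 0.0549 to 0.0846).

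Mitosis genes had positive fold changes that, but for Mki67, did not pass the edgeR test over the 18 libraries. All 23 tested genes of mitosis had a positive log2 fold change, with a median of 1.69, and 1 was called. Mki67, which encodes the proliferation marker Ki-67, had 201, 111 and 151 CPM in Id3- eTR, against 73.1, 22.8 and 30.1 CPM in Id3+ eTR. Mki67's log2 fold change was 1.89 ± 0.43 (SE, edgeR adjusted p = 0.0224). In 8 of the 23 genes the groups did not overlap, all of them higher in Id3- eTR, beside 11.3% of all tested genes. The summed CPM of the 23 genes did overlap, at 476 to 1308 in the Id3- libraries and 136 to 645 in the Id3+ libraries. Mki67 lost its call on leaving out Id3- eTR of mouse 84 or 87, or Id3+ eTR of mouse 86 or 87 and in the 6 libraries alone (edgeR adjusted p of 0.0605 to 0.13). DESeq2 also called Prc1 (adjusted p = 0.0101), and edgeR called Cenpf in the 6 libraries alone (edgeR adjusted p = 0.0383). Neither edgeR over the 18 libraries nor DESeq2 called a gene among 23 tested genes of DNA replication (median log2 fold change 0.15), 18 of glycolysis (-0.11), 22 of the respiratory chain (-0.10), 21 of sterol and fatty acid synthesis (0.09) or 19 of dissociation stress (-0.04). At an unadjusted edgeR p under 0.05 there were 2 DNA replication, 2 glycolysis, 1 respiratory chain, 1 sterol and 1 dissociation gene, beside 13.1% of all tested genes. Rrm2, a ribonucleotide reductase subunit of the DNA replication list, was called higher in the 6 libraries alone with mouse as a block (edgeR adjusted p = 0.0490). The 24 interferon-response genes gave 1 higher call, Gbp4 (log2 fold change 0.54 ± 0.12 (SE), edgeR adjusted p = 0.0164), and 1 lower, Usp18 (log2 fold change -1.33 ± 0.33 (SE), edgeR adjusted p = 0.0425), around a median of 0.04. Gbp4 lost its call on leaving out Id3- eTR of mouse 84 or 87, or Id3+ eTR of mouse 86 or 87 and in the 6 libraries alone (edgeR adjusted p of 0.06 to 0.0951). Usp18 lost its call on leaving out Id3- eTR of mouse 84 or 86, or Id3+ eTR of mouse 84 or 87, without the filter on low counts, in the 6 libraries alone and in the 9 lymph node libraries alone (edgeR adjusted p of 0.0558 to 0.223).

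Over all genes, the 12 genes with the highest and the 12 with the lowest fold changes among those called, at an average log2 CPM of 3 or more, were taken by rule. Most of the highest are receptors and mediators described above, and 2 are extracellular proteases. Adam8, a membrane sheddase, had 60.9, 54.8 and 70.2 CPM in Id3- eTR, against 0.956, 0 and 1.04 CPM in Id3+ eTR. Adam8's log2 fold change was 6.45 ± 1.01 (SE, edgeR adjusted p = 0.00199). Mmp9, a secreted gelatinase, had 86.1, 87.7 and 58.5 CPM in Id3- eTR and 0, 1.16 and 6.23 CPM in Id3+ eTR. Mmp9's log2 fold change was 4.85 ± 0.98 (SE, edgeR adjusted p = 0.00998). Mmp9 lost its call on leaving out Id3+ eTR of mouse 86 and in the 6 libraries alone with mouse as a block (edgeR adjusted p of 0.0612 to 0.0631) and by DESeq2. Of the 12 lowest genes, Igfbp4 is described above and 11 are enzymes, transporters and other genes on no list. Eno3, the muscle-type enolase, had 16.1, 8.04 and 6.42 CPM in Id3- eTR and 58.8, 95.8 and 136 CPM in Id3+ eTR. Eno3's log2 fold change was -3.26 ± 0.36 (SE, edgeR adjusted p = 4.08e-05). Gsta4, a glutathione transferase that clears lipid peroxidation products, had 8.65, 3.65 and 12.1 CPM in Id3- eTR and 70.7, 72.7 and 107 CPM in Id3+ eTR. Gsta4's log2 fold change was -3.35 ± 0.42 (SE, edgeR adjusted p = 0.000163). Lad1, ladinin, had 0.393, 5.11 and 0.356 CPM in Id3- eTR and 50.6, 40.6 and 70.3 CPM in Id3+ eTR. Lad1's log2 fold change was -4.74 ± 0.68 (SE, edgeR adjusted p = 0.00057). Gucy1a1, a subunit of soluble guanylate cyclase, had 5.11, 0.365 and 2.14 CPM in Id3- eTR and 35.8, 44.1 and 37.7 CPM in Id3+ eTR. Gucy1a1's log2 fold change was -3.94 ± 0.76 (SE, edgeR adjusted p = 0.00731). Gata1, best known as an erythroid and megakaryocyte factor, had 5.9, 5.85 and 8.2 CPM in Id3- eTR and 26.3, 38.3 and 42.6 CPM in Id3+ eTR. Gata1's log2 fold change was -2.42 ± 0.47 (SE, edgeR adjusted p = 0.00749). Slc22a2, an organic cation transporter, had 4.72, 1.46 and 4.63 CPM in Id3- eTR and 32.01, 27.4 and 38.4 CPM in Id3+ eTR. Slc22a2's log2 fold change was -3.16 ± 0.57 (SE, edgeR adjusted p = 0.0041). Arhgap20, Sh3bgrl2, Mapk12, Wnt10a and Maged2 were lower by 3.67, 2.37, 2.72, 2.57 and 2.37 on the log2 scale. Eno3, Lad1, Gucy1a1, Arhgap20 and Sh3bgrl2 lost their calls in the 6 libraries alone with mouse as a block (edgeR adjusted p of 0.0547 to 0.0923). Mapk12 lost its call on leaving out Id3- eTR of mouse 84 or 87, or Id3+ eTR of mouse 87 (edgeR adjusted p of 0.0567 to 0.0936). Wnt10a lost its call on leaving out any 1 of the 6 libraries and with mouse as a block over all 18 libraries (edgeR adjusted p of 0.0619 to 0.165). Maged2 lost its call on leaving out Id3- eTR of mouse 84, 86 or 87, or Id3+ eTR of mouse 84 or 87 (edgeR adjusted p of 0.0679 to 0.145).

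Some genes with small p-values were named after their values were seen. Neb, which encodes nebulin, a giant actin-binding protein of the skeletal muscle thin filament, had 1267, 1233 and 1276 CPM in Id3- eTR, against 56.4, 81.9 and 23.5 CPM in Id3+ eTR. Neb's log2 fold change was 4.55 ± 0.29 (SE, edgeR adjusted p = 1.85e-07). Arl5a, a small GTPase of the Golgi, had 355, 379.9 and 422 CPM in Id3- eTR and 63.5, 63.4 and 44.7 CPM in Id3+ eTR. Arl5a's log2 fold change was 2.76 ± 0.20 (SE, edgeR adjusted p = 4.55e-07). The 2 genes are direct neighbours among protein-coding genes in RefSeq's GRCm38.p6 order. Gna15, a G protein α subunit of blood cells, had 108, 107 and 98.4 CPM in Id3- eTR and 11.9, 20.5 and 16.96 CPM in Id3+ eTR. Gna15's log2 fold change was 2.65 ± 0.29 (SE, edgeR adjusted p = 3.55e-05). Among the lower genes, Evl, an actin regulator of the Ena/VASP family, had 44.8, 52.6 and 49.9 CPM in Id3- eTR and 153, 159 and 163 CPM in Id3+ eTR. Evl's log2 fold change was -1.69 ± 0.13 (SE, edgeR adjusted p = 9.33e-07). Asap1, a GTPase-activating protein for Arf proteins, had 103, 84.8 and 93.04 CPM in Id3- eTR and 304, 316 and 221 CPM in Id3+ eTR. Asap1's log2 fold change was -1.58 ± 0.13 (SE, edgeR adjusted p = 2.42e-06). Nbn, nibrin of the DNA break repair complex, had 31.05, 21.6 and 19.96 CPM in Id3- eTR and 109, 93.5 and 134 CPM in Id3+ eTR. Nbn's log2 fold change was -2.22 ± 0.20 (SE, edgeR adjusted p = 4.83e-06). Igf2r, the mannose 6-phosphate receptor, had 49.9, 43.1 and 28.9 CPM in Id3- eTR and 168, 170.1 and 195 CPM in Id3+ eTR. Igf2r's log2 fold change was -2.13 ± 0.23 (SE, edgeR adjusted p = 3.55e-05). All 7 genes kept their call under each of the 14 alternatives. Of genes with no count in the Id3- libraries, Tdrp had 24.4, 11.98 and 10.7 CPM in Id3+ eTR and was at least 40.2-fold lower in Id3- eTR (edgeR adjusted p = 0.000265). Sox4, a transcription factor of immature lymphocytes, had 6.21, 14.7 and 8.31 CPM in Id3+ eTR and was at least 26.7-fold lower in Id3- eTR (edgeR adjusted p = 0.00818). Dntt, the terminal transferase of developing lymphocytes, had 6.21, 3.09 and 6.92 CPM in Id3+ eTR and was at least 14.6-fold lower in Id3- eTR (edgeR adjusted p = 0.0173). Tdrp and Sox4 lost their calls in the 6 libraries alone with mouse as a block (edgeR adjusted p of 0.0838 and 0.117). Dntt lost its call on leaving out Id3- eTR of mouse 84, 86 or 87, or Id3+ eTR of mouse 87 (edgeR adjusted p of 0.0567 to 0.0658).

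Markers of other cells that a CD4 sort could carry along were counted next, without scaling. The summed CPM of the 13 of 14 listed B cell markers found in the table lay at 1253 to 1563 in the Id3- libraries, against 1269 to 1540 in the Id3+ libraries, most of it from Ighm, Cd74 and Cd79b. Pax5 had 0 counts in Id3- eTR and 5 in Id3+ eTR. Myeloid and dendritic markers summed to 334 to 372 CPM in the Id3- libraries, against 225 to 463 CPM in the Id3+ libraries, with Itgax at 0 in all 6 libraries. CD8 T and NK markers summed to 185 to 228 CPM in the Id3- libraries, against 160 to 259 CPM in the Id3+ libraries, with Ncr1 and Klra8 at 0. Erythroid and platelet markers summed to at most 11.7 CPM in Id3- eTR and 7.44 CPM in Id3+ eTR, with Hba-a1, Hba-a2 and Hbb-bs at 0. Neither edgeR nor DESeq2 called a member of these 4 lists (11, 7, 6 and 8 tested), and 1 myeloid gene was at an unadjusted edgeR p under 0.05. Of the 9 tested markers of conventional CD4 T cells, whose sums are given above, 2 were called lower, Igfbp4 and Cd200 (log2 fold change -0.79 ± 0.16 (SE), edgeR adjusted p = 0.0111). Cd200 lost its call on leaving out Id3- eTR of mouse 87, or Id3+ eTR of mouse 84 and in the 6 libraries alone with mouse as a block (edgeR adjusted p of 0.055 to 0.0663). The stromal and endothelial list summed to 64.6 to 78.5 CPM in the Id3- libraries, against 119 to 155 CPM in the Id3+ libraries, nearly all from Pecam1, with Cdh5, Lyve1, Col1a2, Col3a1, Pdpn, Vwf and Pdgfrb at 0. The part of these marker differences in the other results was not tested.

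The same pair of populations was compared in spleen, from the same mice but in separate libraries. There 408 genes were called (3.28% of those tested), 190 higher (1.53%) and 218 lower (1.75%) in Id3- eTR. Without spleen Id3+ eTR of mouse 84, the library that stood apart, 368 were called in spleen and 443 in lymph node. Higher in both tissues were 95 genes, 52.5% of the lymph node's higher genes and 50% of the spleen's. Lower in both were 78 genes, 53.8% of the lymph node's lower genes and 35.8% of the spleen's. No gene was called in opposite directions. Of the 86 genes higher in lymph node and not called in spleen, 75 had a spleen log2 fold change above 0, and of the 67 genes lower in lymph node and not called in spleen, 65 had one below 0. The median log2 fold change of the 181 higher genes was 1.18 in lymph node, where they were selected, and 0.87 in spleen, and that of the 145 lower genes -1.36 and -0.98. In spleen the log2 fold change was 9.53 for Ccr2, 3.07 for Prdm1, 3.73 for Klrg1, 1.35 for Icos, -2.24 for Bcl2 and -5.32 for Igfbp4, with a call for each.

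**Figure D4:**
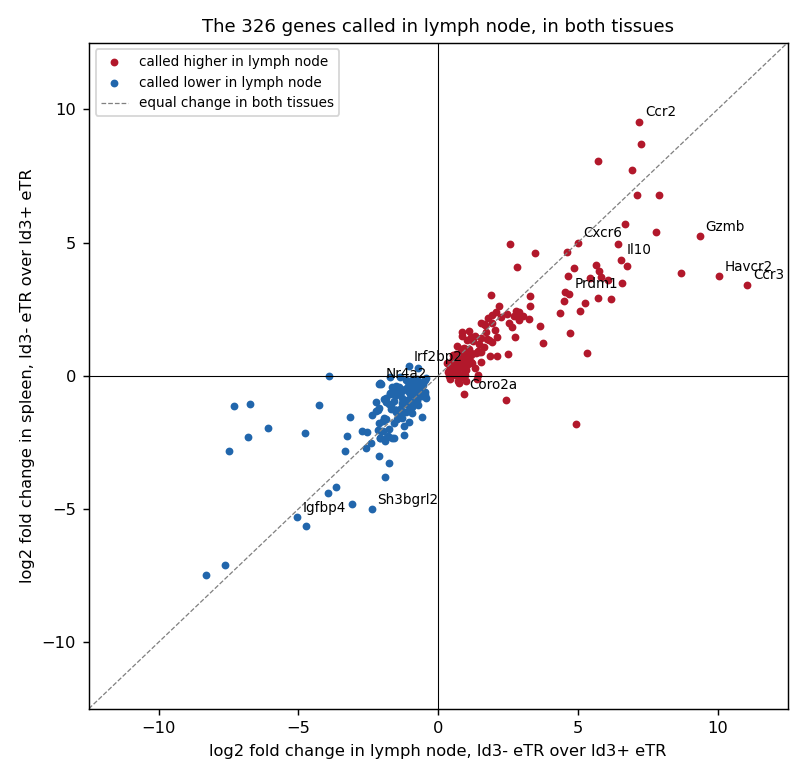
Each point is 1 of the 326 genes called in lymph node: the horizontal axis is its fitted log2 fold change of Id3- eTR over Id3+ eTR in lymph node, by which it was selected, and the vertical axis the same quantity in spleen. Red points were called higher and blue points lower in lymph node, the dashed line marks equal change, and most points have the same sign in both tissues, with Coro2a among the exceptions (0.92 in lymph node and -0.70 in spleen).

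Whether the lymph node difference itself differed from the spleen difference was tested by the interaction of population and tissue. By edgeR no gene was called, with 750 genes at an unadjusted p under 0.05 and 37 called by DESeq2. The 4 genes nearest to the threshold were Ahcyl2, Itga4, Coro2a and Satb1, each at an edgeR adjusted p of 0.0558. Of these, Ahcyl2, Coro2a and Satb1 were named after their values were seen. Satb1, a chromatin organizer of T cells that DESeq2 called in lymph node (adjusted p = 0.0133), had a log2 fold change of -0.48 in lymph node and -1.54 in spleen, and Ahcyl2, a regulator of inositol phosphate receptors, one of -0.30 and -1.61. For Itga4 and Coro2a, an actin-binding coronin, the 2 tissues gave opposite signs. In the lymph node comparison, Coro2a lost its call on leaving out some libraries (edgeR adjusted p of 0.0588 to 0.0694 without Id3- eTR of mouse 84, Id3+ eTR of mouse 84 or 87, or in the 6 libraries alone with mouse as a block). Without the filter on low counts these 4 genes were called for the interaction.

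**Figure D5:**
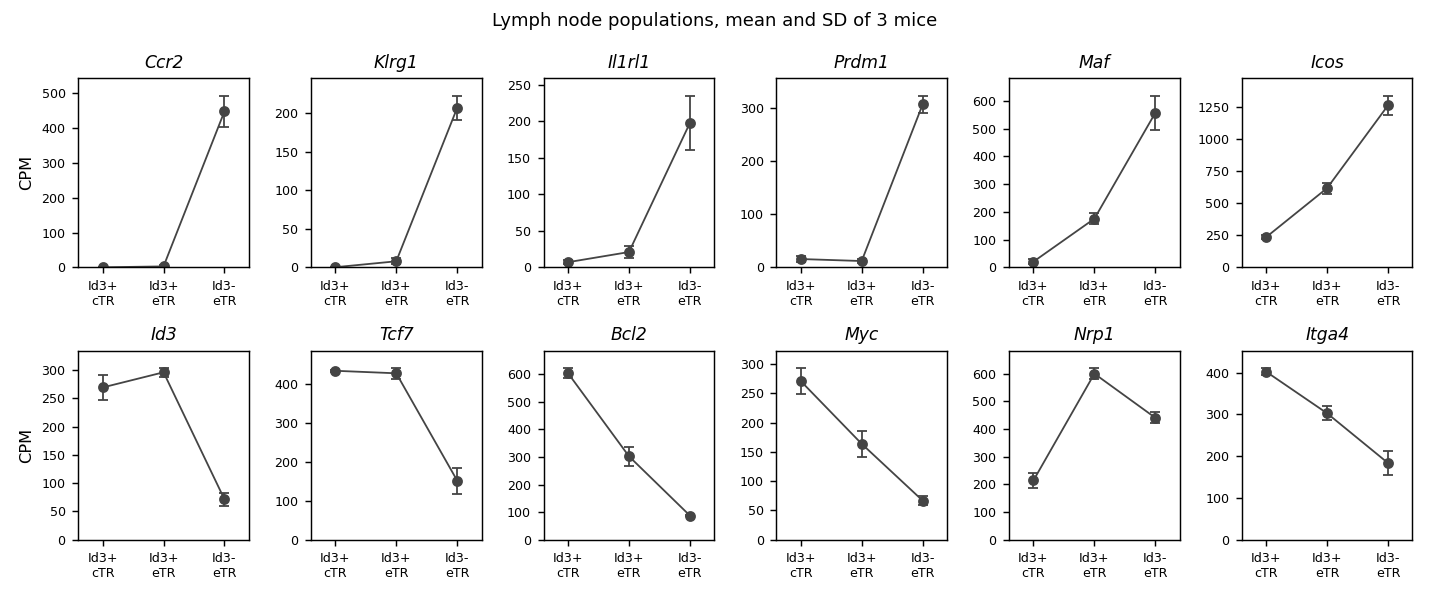
Mean CPM with SD of 3 mice for 12 genes in lymph node, in the order Id3+ cTR, Id3+ eTR and Id3- eTR, each axis starting at 0. Ccr2, Klrg1 and Prdm1 are low in both Id3+ populations and high in Id3- eTR, Icos and Maf are higher in each population than in the one before, and Nrp1 is highest in Id3+ eTR.

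Set beside lymph node Id3+ cTR, whose levels are given as a description and without a test because the Id3+ eTR libraries would serve both comparisons, the changed genes fell into different patterns. Prdm1 was at 15.7 ± 5.68 CPM in Id3+ cTR, at 11.9 ± 3.47 CPM in Id3+ eTR and at 306 ± 16.7 CPM in Id3- eTR (mean ± SD, n = 3 each, here and below). Tcf7 was at 433 ± 2.74 CPM in Id3+ cTR, at 427 ± 13.7 CPM in Id3+ eTR and at 152 ± 33.3 CPM in Id3- eTR, so that the Id3+ populations had like levels and Id3- eTR had a lower one. Graded levels were seen for Maf, at 20.6 ± 9.57 CPM in Id3+ cTR, at 175 ± 20.2 CPM in Id3+ eTR and at 557 ± 61.8 CPM in Id3- eTR. They were seen also for Icos, at 236 ± 17.8 CPM in Id3+ cTR, at 618 ± 43.7 CPM in Id3+ eTR and at 1264 ± 75.5 CPM in Id3- eTR. Bcl2 went the other way in the same graded manner, at 604 ± 18.9 CPM in Id3+ cTR, at 303 ± 34.2 CPM in Id3+ eTR and at 87.4 ± 1.14 CPM in Id3- eTR. Id3 itself stood at 269 ± 21.98 CPM in Id3+ cTR, at 296 ± 7.65 CPM in Id3+ eTR and at 71.4 ± 11.3 CPM in Id3- eTR, with both Id3+ populations above Id3- eTR. Nrp1 was highest in the middle population, at 214 ± 26.2 CPM in Id3+ cTR, at 599.9 ± 20.6 CPM in Id3+ eTR and at 440.5 ± 20.1 CPM in Id3- eTR. Neb was lowest there, at 146 ± 14.5 CPM in Id3+ cTR, at 53.95 ± 29.3 CPM in Id3+ eTR and at 1259 ± 22.5 CPM in Id3- eTR.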

How the data were processed

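RNA of 18 libraries, each of 500 sorted cells, was sequenced after SMART-Seq v4 cDNA synthesis and a modified Nextera XT library preparation, per the labels' protocols. The authors deposited whole-number read counts per gene, and the tools listed, without their roles, per the submitters' processing notes are TopHat, Bowtie, HTSeq 0.4.1, SAMtools, Picard and FastQC. The genome build, and whether duplicate reads were removed, are not given in the sources used here. The top gene held 4319 to 4706 counts in the 6 libraries; how far a ceiling on abundant genes narrows fold changes was not tested. A second, normalized table was not used.

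Of 37991 gene identifiers, 32919 had a symbol, and 0.891% of the counts fell on the rest. Genes were filtered by filterByExpr (minimum count 10), scaled by TMM and tested in 1 edgeR 4.0.16 quasi-likelihood model with a mean for each of 6 groups (limma 3.58.1, R 4.3.3). All 18 libraries entered, so that the spread was shared. Benjamini-Hochberg adjustment ran over all 12445 genes, with a threshold of 0.05. Pooled-count ratios carry 95% intervals and a floor of 3 counts over the group, which cover counting error only. The procedure was tested on data simulated without a mouse effect, which could not test whether libraries of the same mouse are independent.

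Alternatives were DESeq2 1.42.0, RLE scaling, no filter, other sets of libraries, a mouse block and each library left out. Same-numbered libraries come from the same mouse per the labels, so mouse was used as a block in some alternatives, though not in the main model. Deviations of same-numbered libraries from the group means correlated at 0.0783, 0.0678 and 0.0188 over genes in lymph node. The mice are littermates. The p-values of the main model rest on the spread within groups, pooled over the 6 groups of both tissues. They treat libraries of the same mouse as independent.

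The members and the gene lists were chosen with earlier results of these data known. Genes were named by rule: the sort, E protein and Id genes, the 12 highest and 12 lowest called genes at an average log2 CPM of 3 or more, up to 3 called genes of each list with the smallest p (2 for lists of other cells), and the genes closest in the interaction where called. Other called list members and genes said to be so were named after their values were seen. A few genes, also members of lists, are not reported here.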

Additional observations from a re-analysis of the deposited data

Results flagged for a closer look

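In 4 of the 121 named genes, every mouse gave one direction in lymph node and the opposite one in spleen for Id3- eTR over Id3+ eTR. The same held for 315 of all 12445 tested genes (2.53%). Coro2a, Irf2bp2 and Bhlhe40 were named after their values were seen, so the count among named genes is a description and no test. The difference was tested by the edgeR interaction term over all genes, which called no gene over the 18 libraries. Itga4, an integrin chain, had a log2 fold change of -0.72 in lymph node and 0.28 in spleen (interaction edgeR adjusted p = 0.0558). Coro2a, an actin-binding coronin, had 0.92 in lymph node and -0.70 in spleen (edgeR adjusted p = 0.0558). Irf2bp2, a transcriptional corepressor, had -1.06 in lymph node and 0.37 in spleen (edgeR adjusted p = 0.0774). Bhlhe40, a basic helix-loop-helix factor of activated T cells, had -0.82 in lymph node and 0.86 in spleen (edgeR adjusted p = 0.134) and was called in neither tissue over the 18 libraries. In lymph node it was called under 5 of 14 alternatives, at an adjusted p of 0.0267 by DESeq2 and of 0.00719 to 0.0420 by edgeR. DESeq2 called the interaction for all 4 genes, at adjusted p-values of 1.758e-05 for Itga4, 7.382e-05 for Coro2a, 0.000354 for Irf2bp2 and 0.00193 for Bhlhe40. By edgeR it was called without the filter for Itga4 and Coro2a (adjusted p = 0.0162 each) and on leaving out 1 library for each gene (0.0216 for Itga4, 0.0162 for Coro2a, 0.0187 for Irf2bp2 and 0.0215 for Bhlhe40).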

How the results depend on the processing

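The lymph node count of 326 called genes became 566 by DESeq2 and 204 in the 6 libraries alone with mouse as a block; leaving out 1 library gave 192 to 443. It was 307 with mouse as a block over all 18 libraries, 336 under RLE scaling and 325 without the filter. The share of calls that were higher was 55.5%, and 63.2% with the 6 libraries and the block. The spleen count of 408 became 752 by DESeq2, 171 in its 6 libraries and 142 with the block there, and 267 to 440 on leaving out 1 library. The interaction, at 0, gave 4 without the filter, 37 by DESeq2 and 0 to 5 on leaving out 1 library. Of 111 named called genes, 58 kept their call under all 14 alternatives, 53 lost it under at least 1, and 0 changed sign. Of 10 named genes not called, 3 (Cd44, Bhlhe40 and Satb1) were called under at least 1 alternative. Signs changed in 3 uncalled genes with values near 0: Cd4 (-0.2084 to 0.06576 on leaving out 1 library), Tcf3 (-0.3285 to 0.003284) and Tcf12, which ranged from -0.1659 to 0.136 there and was -0.003887 with the block over 18 libraries, -0.00394 in the 6 libraries, -0.009321 in these with the block and -0.003186 in the 9 lymph node libraries. The causes were not tested. Calls of genes with few counts in 1 group are limited by depth.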
